A study of Mus musculus with 8 samples.

Results

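The p53 transcription factor gene Trp53 and 9 of its transcriptional targets were followed in naive CD8 T cells, which have not yet met antigen and can become cytotoxic T cells. The 10 genes were taken by symbol from a table of 22609 genes, and all 10 were found: Trp53, Cdkn1a, Mdm2, Ccng1, Zmat3, Phlda3, Sesn1, Sesn2, Trp53inp1 and Gadd45a. They were chosen as a pathway and not for a measured value, though with earlier results of these data known. Messenger RNA had been sequenced from spleen cells of C57BL/6 mice aged 3 months, with 4 libraries from Brca1 wild type (WT) and 4 from Brca1 heterozygous (Het) animals. The labels do not say how the Brca1 allele was made, which part of the gene it affects, whether each library came from a separate mouse, or the sex, litter and isolation day. The p-values therefore measure the spread between these libraries, which may be technical. Libraries are named by genotype and title number: WT 45, 54, 57 and 65, and Het 31, 53, 56 and 139.

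The p53 protein is held at a low level in resting cells because the ubiquitin ligase Mdm2, itself a p53 target, marks it for degradation. DNA damage signalling through Atm and Chek2 frees p53 from Mdm2, so p53 activity is set largely after translation and is commonly read from its targets rather than from Trp53 messenger RNA. Among those targets, Cdkn1a encodes p21, an inhibitor of cyclin-dependent kinases, and the sestrins Sesn1 and Sesn2 restrain the growth kinase complex mTORC1. Brca1 acts in the repair of DNA double strand breaks, and comparing the genotypes asks whether p53 target transcripts differ when 1 Brca1 copy is affected.

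Values are the authors' normalized read counts per gene. The 8 libraries had been brought to 1 shared distribution, so their totals carry no depth. WT libraries had 15358 to 15569 genes above 0, and Het libraries 13863 to 14656 (exact permutation p = 0.0286, 2-sided, the smallest that 4 against 4 libraries can give). The lowest value above 0 was 0.2 to 0.3 in the WT libraries and 0.9 to 1.9 in the Het libraries. The part of read depth in the number of genes above 0 was not tested. Genes of naive CD8 T cells were abundant in each library, with a summed level of 13 markers between 321610 and 361887 in WT and between 336059 and 390081 in Het. Nerve and glia markers (9 genes) had a lower mean log2 level in each Het library, at 2.79 to 5.67 against 6.36 to 8.05 in WT, and 4 of the 9 (Snap25, Nefl, Nefm and Sox10) were listed at 0 in at least 1 library. Fibroblast and stroma markers (10 genes) did the same, at 5.17 to 6.41 in Het against 6.95 to 8.40 in WT, with 1 of the 10 (Pdgfra) listed at 0 in at least 1 library. Epidermis markers were highest in WT 45 and WT 54. B cell markers (8 genes, none at 0 in any library) were highest in Het 31, at a summed level of 16402. Elsewhere their sum ran from 2636 in WT 45 to 7734 in Het 53. NK cell markers (6 genes, with Klra4 at 0 in all libraries) overlapped, at a mean log2 level of 4.74 to 6.26 in WT and 5.41 to 7.12 in Het. The part of these cells in the members' values was not tested. In libraries of many cells, fewer cells of a type and less RNA per cell cannot be told apart.

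The p53 protein binds a decamer site, 3 purines, a C, a pair of A or T letters, a G and 3 pyrimidines, most tightly where a pair of such decamers lies close together. The decamer reads as the same pattern on both strands. Sequences are shown for the members whose RefSeq promoter window (GRCm38.p6, 250 bases before to 50 after an annotated start) held it. Entries were found for 8 of the 10 members, in 10 windows, and 6 windows of 6 members held a decamer. Over all 32851 windows, 8.36% held one. A pair with at most 13 bases between them was held by 1 member window, that of the upstream Cdkn1a start, and by 0.0731% of all windows. The stretches follow from 5′ to 3′ on the strand of the gene, with decamers in capitals.
Cdkn1a, chr17:29090729-29090968, plus strand: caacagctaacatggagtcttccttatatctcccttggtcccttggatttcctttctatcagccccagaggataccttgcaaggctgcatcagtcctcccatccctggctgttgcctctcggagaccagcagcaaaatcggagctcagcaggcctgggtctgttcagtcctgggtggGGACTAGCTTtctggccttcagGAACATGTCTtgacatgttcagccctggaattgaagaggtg
Trp53, chr11:69580259-69580318, plus strand: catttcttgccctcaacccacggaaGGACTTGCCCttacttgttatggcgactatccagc
Mdm2, chr10:117710910-117710969, minus strand: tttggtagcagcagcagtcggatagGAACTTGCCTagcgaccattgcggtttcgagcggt
Ccng1, chr11:40755437-40755496, minus strand: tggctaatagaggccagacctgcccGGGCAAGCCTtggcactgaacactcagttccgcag
Sesn1, chr10:41887241-41887300, plus strand: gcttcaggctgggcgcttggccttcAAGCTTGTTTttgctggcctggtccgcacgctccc
Gadd45a, chr6:67037428-67037457, minus strand: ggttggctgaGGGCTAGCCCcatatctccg

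The Cdkn1a decamers begin 73 and 51 bases before the upstream start, with 12 bases between them, and the window of the other Cdkn1a start held none. The Trp53, Mdm2 and Ccng1 decamers begin 75, 186 and 185 bases before their starts. The Sesn1 decamer begins 173 bases before the downstream of its 2 starts, and the Gadd45a decamer 40 bases before its start. In GENCODE M21, the Sesn1 stretch lies in an intron of a protein-coding Sesn1 transcript from the upstream start. The Gadd45a stretch lies in the first exon of a retained-intron Gadd45a transcript and in introns of the opposite-strand long noncoding gene E230016M11Rik. The other 4 stretches lie outside annotated transcripts. The windows of Phlda3 and Sesn2 held no match, and Zmat3 and Trp53inp1 had no entry. A match is a description of letters in a short window, not a bound site.

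None of the 10 members changed between the genotypes by limma at an adjusted p under 0.05, against 0.515% of the 12048 tested genes, or 62 genes. All 62 had lower Het values. At an unadjusted p under 0.05 there was 1 member, Sesn2, against 8.19% of tested genes. WT and Het values overlapped in each of the 10, where 5% of tested genes had no overlap. Differences of Het against WT were below 0 in 6 members and above 0 in 4, from -0.50 (Sesn2) to 0.41 (Phlda3) on the log2(value + 1) scale. The median over the members was -0.05, beside 0.01 over all tested genes. The median size of the differences, whatever their sign, was 0.10 in the members and 0.14 over all tested genes.

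**Figure D1:**
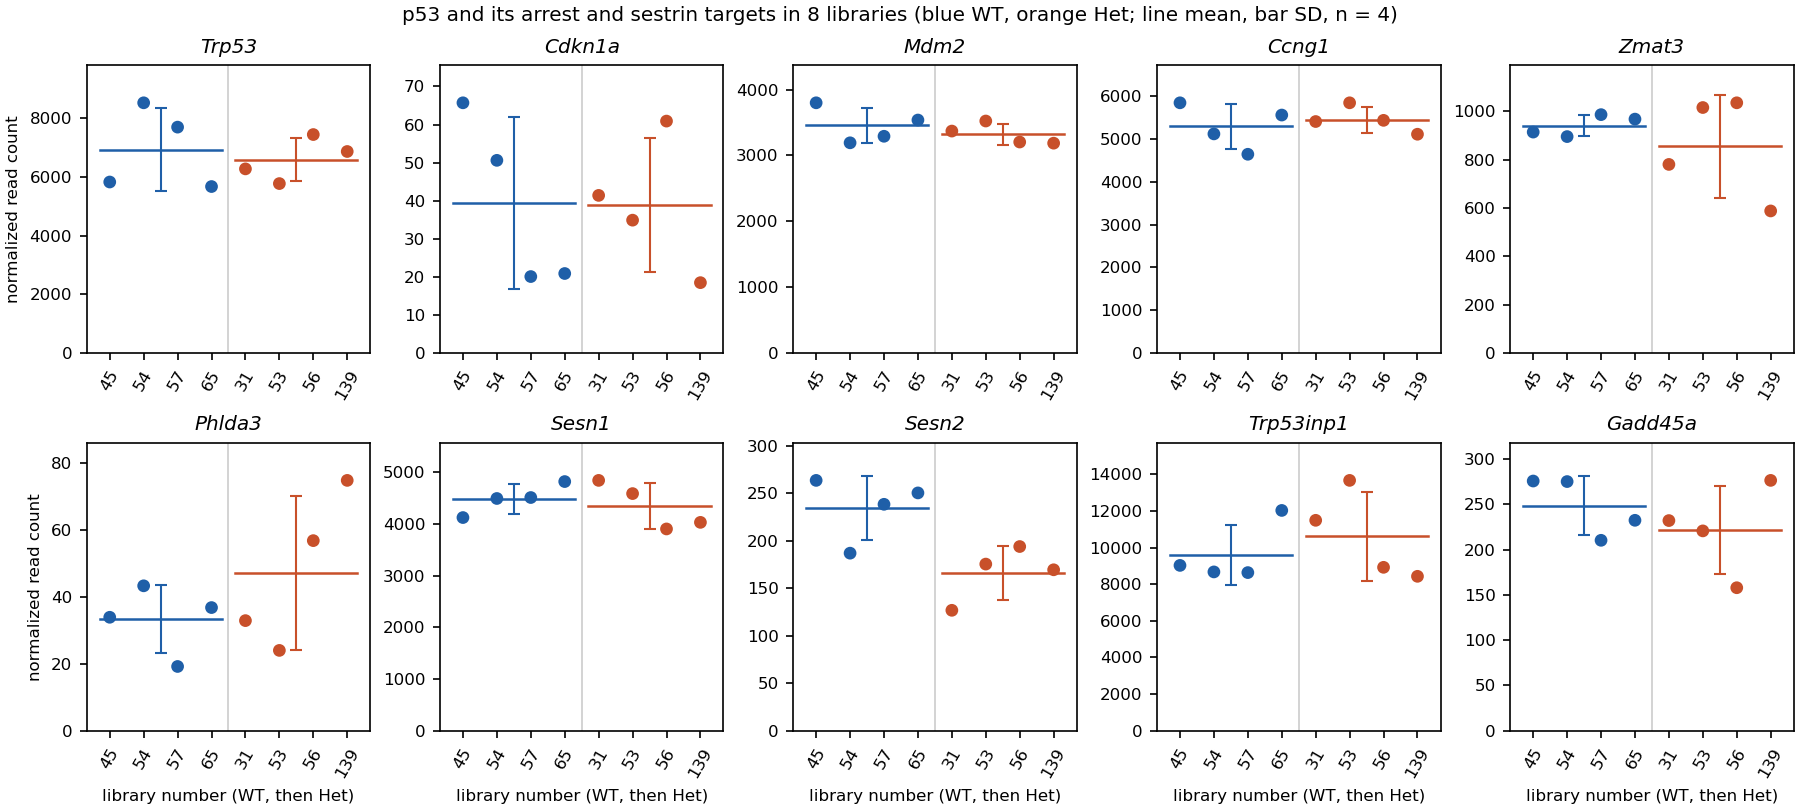
Normalized read count (y axis, linear, from 0) of each of the 10 genes in the 4 WT (blue) and 4 Het (orange) libraries, with a line at the mean and a bar for the SD (n = 4). The genotypes overlap in every panel. Sesn2 comes nearest to separating, with WT 54 at 187.1 below Het 56 at 194.1.

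Trp53, the factor itself, was at 5829.6, 8527.6, 7698.8 and 5675.4 in WT libraries 45, 54, 57 and 65, and at 6277.1, 5776.2, 7446.2 and 6869.2 in Het libraries 31, 53, 56 and 139. The 4 Het values lay inside the WT range, which was set by WT 54 at the top and WT 65 at the bottom. The WT mean was 6933 ± 1406 and the Het mean 6592 ± 724 (SD, n = 4 each). Het minus WT was thus -0.06 in log2 units (SE 0.14, 95% interval -0.37 to 0.26, limma adjusted p = 0.917). The direction was not stable: the difference was 0.05 without WT 54.

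Mdm2, the ligase that degrades p53 and is switched on by it, was the steadiest member. It stood at 3799, 3192, 3291.1 and 3537.5 in WT libraries 45, 54, 57 and 65, and at 3370.1, 3522.7, 3203.8 and 3186.4 in Het libraries 31, 53, 56 and 139. The highest library was 1.19 times the lowest, and the coefficient of variation over the 8 libraries was 6.43%. Het minus WT was -0.06 on the log2 scale (SE 0.08, 95% interval -0.24 to 0.13, limma adjusted p = 0.860), so the interval leaves out a rise above 1.10-fold and a fall below 0.845 of the WT level.

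Cdkn1a, the arrest gene, was low and variable. The WT libraries 45, 54, 57 and 65 had normalized read counts of 65.7, 50.6, 20.1 and 20.9, and the Het libraries 31, 53, 56 and 139 had 41.4, 34.9, 60.9 and 18.5. Both genotypes held libraries near 20 and libraries above 60, with WT 45 and Het 56 highest and WT 57, WT 65 and Het 139 lowest. Its WT and Het means were 39.3 ± 22.6 and 38.9 ± 17.5 (SD, n = 4 each), 0.05 apart in log2 units (SE 0.50, limma adjusted p = 0.979, exact permutation p = 0.943). Its 95% interval, -1.05 to 1.16, takes in changes of about 2-fold either way, so a difference of that size was not detectable here. The sign turned in 4 of the 8 fits that left out 1 library, to as low as -0.20 without WT 57.

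The reads behind a low value can be estimated from its place among the distinct values of its library, since each whole read number takes 1 value. Cdkn1a rested on an estimated 77 reads in WT 45 (95% Poisson interval 60.8 to 96.2) and 17 in Het 139 (9.90 to 27.2), for counting error only. The 3 libraries with the highest Cdkn1a also had the 3 highest epidermis marker levels: the mean log2 level of the 7 epidermis genes was 9.38 in WT 45, 8.94 in WT 54 and 5.67 in Het 56, and 1.82 to 4.13 in the other 5. Each of the 7 genes was above 0 in every library, and the part of those cells in the Cdkn1a level was not tested. Exons of Cdkn1a and Gadd45a overlap an opposite-strand transcript in the GENCODE M21 annotation. The strand setting of the counting is not given in the sources used here, so reads of the overlapping genes cannot be told apart.

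Gadd45a, a stress sensor that binds p21 and Cdk1, was at 275.9, 275.3, 210.4 and 232.5 in WT libraries 45, 54, 57 and 65, and at 232.2, 220.8, 158 and 276.6 in Het libraries 31, 53, 56 and 139. The highest and the lowest of the 8 values were both in Het libraries, 139 and 56. The log2 difference was -0.18 (SE 0.20, 95% interval -0.62 to 0.26, limma adjusted p = 0.804). Its relatives did not pass either: Gadd45b had a WT mean of 393 ± 167 and a Het mean of 365 ± 43.4, and Gadd45g at 85.3 ± 21.5 and 99.1 ± 31.8 (SD, n = 4 each).

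Ccng1, cyclin G1, an early p53 target that recruits a phosphatase to Mdm2, was at 5839.9, 5114.8, 4639.4 and 5554.4 in WT libraries 45, 54, 57 and 65, and at 5403.2, 5839.9, 5430.8 and 5106.7 in Het libraries 31, 53, 56 and 139. The same top value was reached in WT 45 and Het 53. Het minus WT was 0.05 on the log2 scale (SE 0.09, 95% interval -0.16 to 0.25, limma adjusted p = 0.897). Its relative Ccng2 had a WT mean of 2231 ± 480 and a Het mean of 2429 ± 667 (SD, n = 4 each), 0.10 apart on the log2 scale.

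Zmat3, a zinc finger RNA-binding protein, was even in WT and uneven in Het. It was at 913.4, 894.8, 985.5 and 967 in WT libraries 45, 54, 57 and 65, and at 779.8, 1014.9, 1034.4 and 587.6 in Het libraries 31, 53, 56 and 139. Comparison of the means, 940 ± 43.0 and 854 ± 212 (SD, n = 4 each), gave -0.17 in log2 units (SE 0.17, limma adjusted p = 0.778), and -0.006 without Het 139. Het 53 and Het 56 were above each WT library, and Het 31 and Het 139 below each.

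Phlda3, an inhibitor of the kinase Akt, had the largest difference above 0 and a wide error. The WT libraries 45, 54, 57 and 65 were at 33.9, 43.3, 19.2 and 36.8, and the Het libraries 31, 53, 56 and 139 at 32.9, 24, 56.8 and 74.8. Het 56 and Het 139 stood above each WT library, and Het 31 and Het 53 lay within the WT range. Het minus WT was 0.41 on the log2 scale (SE 0.43, 95% interval -0.54 to 1.36), with an adjusted p of 0.790 by limma and an exact permutation p of 0.400. The values rested on an estimated 27 to 66 reads per library, and without Het 139 the difference was 0.15.

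Trp53inp1, a nuclear protein that promotes p53 phosphorylation and autophagy, separated the libraries in another way than by genotype. It was at 9029.9, 8674.3, 8637.3 and 12032.4 in WT libraries 45, 54, 57 and 65, and at 11492.7, 13673.4, 8925.2 and 8433.7 in Het libraries 31, 53, 56 and 139. WT 65, Het 31 and Het 53 were at 11492.7 or more and the other 5 libraries between 8433.7 and 9029.9. Het minus WT was 0.13 on the log2 scale (SE 0.17, 95% interval -0.23 to 0.50, limma adjusted p = 0.822). Its relative Trp53inp2 had a WT mean of 138 ± 26.9 and a Het mean of 78.9 ± 31.8 (SD, n = 4 each), -0.87 in log2 units (SE 0.31, limma adjusted p = 0.477).

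The sestrins are stress-induced proteins that sense leucine and inhibit mTORC1 through the GATOR complexes. Sesn1, the isoform most tied to p53, was at 4123.2, 4492.1, 4510.6 and 4819.4 in WT libraries 45, 54, 57 and 65, and at 4842.1, 4586.8, 3902.9 and 4030.2 in Het libraries 31, 53, 56 and 139. Het libraries held both the highest and the lowest value. The log2 difference was -0.05 (SE 0.09, 95% interval -0.26 to 0.16, limma adjusted p = 0.885).

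Sesn2, which also responds to the stress factor Atf4, was at 263.8, 187.1, 238.6 and 250.6 in WT libraries 45, 54, 57 and 65, and at 126.9, 175.6, 194.1 and 169.6 in Het libraries 31, 53, 56 and 139. Het 56 was above WT 54, and otherwise each Het library was below each WT library. The log2 difference was -0.50 (SE 0.19, 95% interval -0.93 to -0.07, unadjusted limma p = 0.0266, adjusted p = 0.529, exact permutation p = 0.0571). It ranked 604 among the 12048 tested genes by p. Sesn3, the FoxO-regulated relative, had a WT mean of 2962 ± 577 and a Het mean of 2599 ± 609 (SD, n = 4 each), -0.20 on the log2 scale (limma adjusted p = 0.771).

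**Figure D2:**
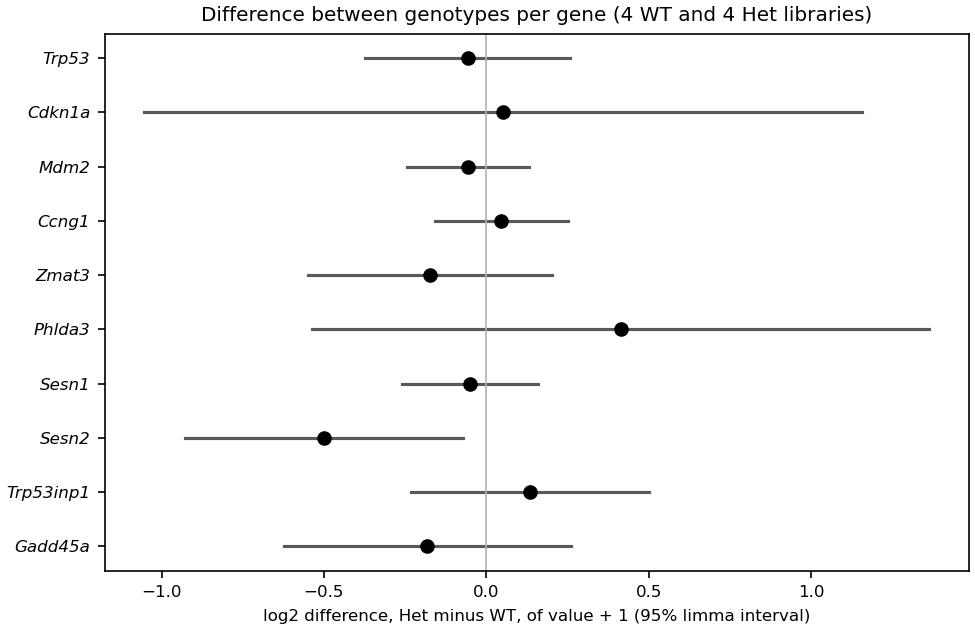
Log2 difference of Het against WT on the log2(value + 1) scale (x axis) for each gene (y axis), as a point with the 95% limma interval, from 4 WT and 4 Het libraries. Intervals are narrowest for Mdm2 (-0.24 to 0.13) and widest for Cdkn1a (-1.05 to 1.16), and that of Sesn2 alone leaves out 0, before adjustment over 12048 genes.

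To set the members side by side, values were divided by the exon length of the gene in GENCODE M21, which may differ from the gene models that the authors counted. On this scale, normalized read count per kilobase averaged over the 8 libraries, Trp53 was highest at 3620, followed by Trp53inp1 at 1871, Ccng1 at 1528, Sesn1 at 1113 and Mdm2 at 1077. The other 5 lay far lower, with Gadd45a at 192, Zmat3 at 115, Sesn2 at 57.8, Phlda3 at 28.0 and Cdkn1a at 14.4. Cdkn1a and Gadd45a, both linked to arrest after DNA damage, were in the lower group. The ranges over libraries did not overlap between Trp53 and Trp53inp1, Ccng1 and Sesn1, or Mdm2 and Gadd45a. The other neighbours in this order overlapped.

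The members did not vary together over the 8 libraries as 1 group. Of the 45 pairs, 25 had a Pearson r above 0 and 20 below, with a median of 0.03, on log2(value + 1). By Pearson, the pair farthest from 0 was Trp53 with Mdm2 (r = -0.81, exact permutation p = 0.0151, Spearman rho = -0.76, exact permutation p = 0.0368). By Spearman, Ccng1 with Trp53inp1 (rho = 0.83, exact permutation p = 0.0172, r = 0.60, exact permutation p = 0.113) and Zmat3 with Gadd45a (rho = -0.81, exact permutation p = 0.0218, r = -0.57, exact permutation p = 0.147) were farther from 0. Their r was 0.89 without WT 45 and WT 57, and -0.90 without Het 31 and Het 139, the libraries farthest from the median of the first gene. The lowest adjusted p over the 45 pairs was 0.595 for Pearson and 0.244 for Spearman by permutation, so no pair passed the correction. The inverse order of Trp53 and Mdm2 was present within each genotype (r = -0.91 in WT and -0.94 in Het, over 4 libraries each), and r was -0.85 without WT 54 and WT 57, the libraries farthest from the Trp53 median. Trp53 was also inverse to Ccng1 (r = -0.76, exact permutation p = 0.0282, rho = -0.75, exact permutation p = 0.0380, r = -0.69 without WT 54 and WT 57). With Trp53inp1 the values were r = -0.72 (exact permutation p = 0.0529) and rho = -0.79 (exact permutation p = 0.0279), and r = -0.67 without the same libraries. Mdm2 and Ccng1 varied the same way (r = 0.70, exact permutation p = 0.0482, rho = 0.77, exact permutation p = 0.0324, r = 0.57 without WT 45 and WT 65).

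The levels of Trp53, Ccng1 and Trp53inp1 went with a trend of the libraries in transcript base composition. For each library a GC trend was taken as the median log2 deviation of the 20% of tested genes lowest in transcript GC minus that of the 20% highest, over 10884 genes with a value (90.3% of those tested). In the WT libraries 45, 54, 57 and 65 this trend was 0.06, -0.20, -0.19 and 0.16, and in the Het libraries 31, 53, 56 and 139 it was 0.02, 0.29, -0.0031 and -0.13. Trp53, whose transcript is at 53.3% GC, fell as the trend rose (r = -0.86, exact permutation p = 0.00739, adjusted 0.0372, rho = -0.95, exact permutation p = 0.00114, adjusted 0.0228). Trp53inp1, at 38.8% GC, went the other way (r = 0.87, exact permutation p = 0.00270, adjusted 0.0372, rho = 0.88, adjusted 0.0595). So did Ccng1, at 40.8% GC (r = 0.85, exact permutation p = 0.00610, adjusted 0.0372, rho = 0.86, adjusted 0.0595). Mdm2, at 46.2%, had r = 0.66 (exact permutation p = 0.0750, adjusted 0.250) and rho = 0.79 (adjusted 0.0798). The members with more GC than Trp53 did not follow the trend. Their r was -0.24 for Phlda3 at 62.6% GC, 0.01 for Sesn2 at 58.7% and 0.11 for Cdkn1a at 54.4%. Adjustment was over 20 relations, those of the 10 members with the GC trend and with a length trend of the same kind. Trp53inp1 and Ccng1 are themselves in the 20% lowest in GC (up to 43.8%), whose median enters the trend. Their rise with it is therefore partly built in, and the share of all tested genes with such an r was not measured. Without WT 54 and Het 53, at the ends of the trend, r was -0.83 for Trp53, 0.75 for Trp53inp1 and 0.87 for Ccng1.

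With the GC trend taken out of both genes, the r of Trp53 was -0.63 with Mdm2, -0.09 with Ccng1 and 0.13 with Trp53inp1. In the same 3 pairs r had been -0.81, -0.76 and -0.72. Some other pairs moved away from 0 when the GC trend was taken out in the same way. Sesn1 with Trp53inp1 went from 0.67 to 0.91, Trp53 with Zmat3 from -0.04 to 0.57, and Cdkn1a with Ccng1 from 0.50 to 0.78. The trend was measured after the pairs had been seen, and its part in them was not tested.

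**Figure D3:**
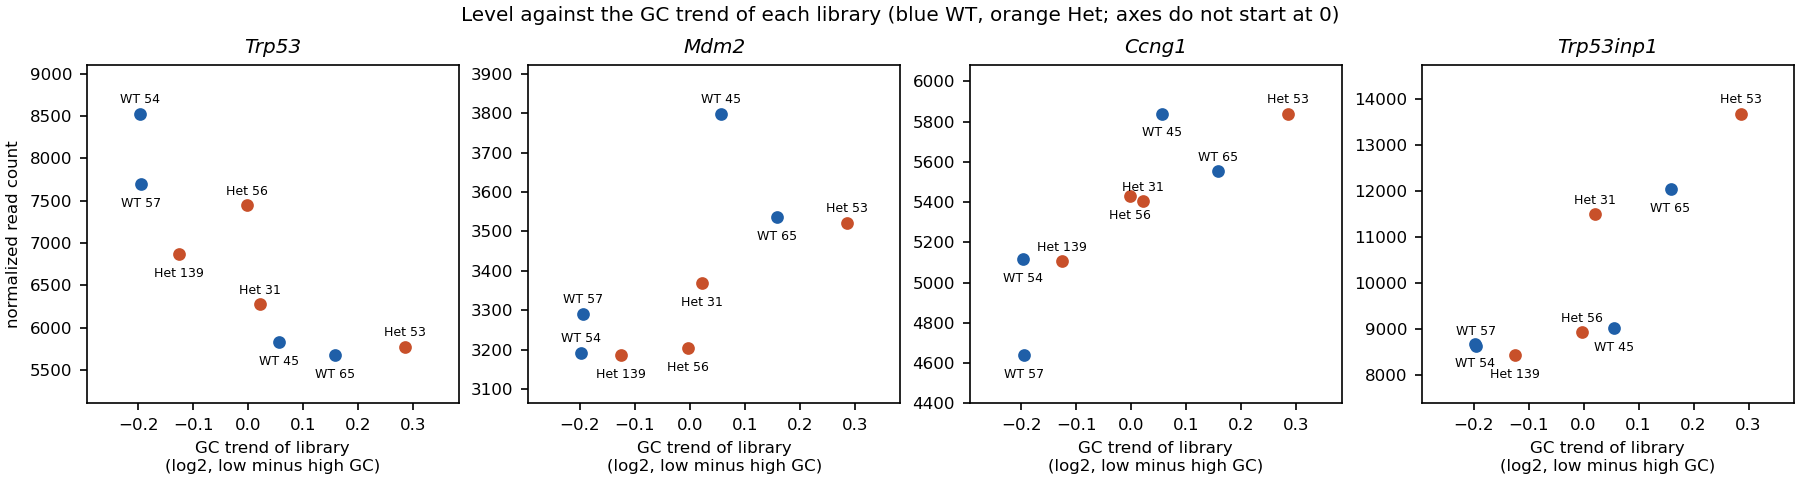
Normalized read count (y axis, not from 0) of Trp53, Mdm2, Ccng1 and Trp53inp1 against the GC trend of the library (x axis, log2, genes of low GC minus genes of high GC), 1 point a library, WT blue and Het orange. Trp53 falls along the axis (r = -0.86), and Ccng1 (r = 0.85) and Trp53inp1 (r = 0.87) rise, with both genotypes spread along it.

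The other property examined was exon length. The length trend, the median log2 deviation of the 20% shortest minus that of the 20% longest genes, was highest in Het 139 at 0.39 and Het 31 at 0.36, then 0.11 in WT 54, and between -0.24 and -0.03 in the other 5 libraries. Zmat3, with 7797 exonic bases longer than 92.2% of tested genes, had r = -0.83 with this trend (exact permutation p = 0.00744, adjusted 0.0372, rho = -0.60, exact permutation p = 0.132, adjusted 0.294). It is itself among the 20% longest genes (from 5541 bases), whose median enters the trend, so an r below 0 is partly built in. Sesn2, with 3475 bases near the middle of tested genes, had r = -0.77 (exact permutation p = 0.0248, adjusted 0.0992, rho = -0.81, exact permutation p = 0.0218, adjusted 0.0798). Without Het 31 and Het 139 r was -0.31 for Zmat3 and -0.47 for Sesn2, so the size of both relations rested on those 2 libraries, and of the 2 only the Pearson relation of Zmat3 passed the adjustment. By rank, Mdm2 (3145 bases, rho = -0.83, exact permutation p = 0.0154, adjusted 0.0769) and Ccng1 (3512 bases, rho = -0.79, exact permutation p = 0.0254, adjusted 0.0798) were about as far from 0 as Sesn2, and none of the 3 passed. Their Pearson values were -0.62 and -0.45, and -0.81 and -0.71 without Het 31 and Het 139. Trp53 (1868 bases) had r = 0.35 over the 8 libraries (adjusted 0.701 by exact permutation) and r = 0.93 without the same 2, so the members followed with the GC trend also varied with the length trend in the other 6 libraries. With the length trend as a covariate, chosen after the data had been seen, the log2 difference of Het against WT was -0.34 for Sesn2 (limma adjusted p = 0.655) and 0.02 for Zmat3 (limma adjusted p = 0.968), where it had been -0.50 and -0.17. With the GC trend as a covariate instead, it was -0.54 and -0.24 (limma adjusted p = 0.349 and 0.502). The 2 libraries of highest length trend are both Het, so the trend and the genotype cannot be fully told apart.

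**Figure D4:**
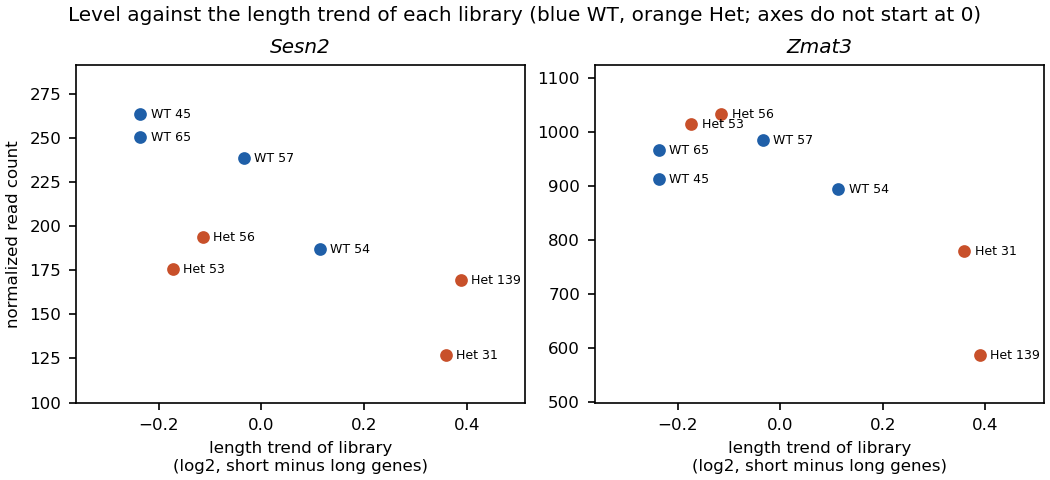
Normalized read count (y axis, not from 0) of Sesn2 and Zmat3 against the length trend of the library (x axis, log2, short minus long genes), 1 point a library, WT blue and Het orange. Het 31 and Het 139 lie at the far right with the lowest Zmat3, and Het 31 has the lowest Sesn2, at 126.9.

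By highest Pearson r over the 8 libraries among 8878 other genes with a mean of at least 100, the patterns most like that of Trp53 were those of Dos (r = 0.98), Abhd14b (r = 0.97) and Snx32 (r = 0.96). Dos ran from 553.1 in WT 65 to 873.8 in WT 54, the same lowest and highest libraries as Trp53. The patterns most like that of Cdkn1a, among 8879 genes, were those of Zfp954 (r = 0.95), Rab12 (r = 0.88) and Gfm1 (r = 0.88). These are the top of a ranking and carry no test.

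The wider p53 pathway was taken from 6 further gene lists, and none of their members passed the limma test at the adjusted threshold, where 0.515% of tested genes did. The counts given below for each list at an unadjusted limma p under 0.05 stand beside 8.19% of all tested genes. Of 30 tested other p53 targets, such as those of apoptosis and repair, 12 were higher and 18 lower in Het, with a median log2 difference of -0.02 and 1 gene at an unadjusted p under 0.05. That gene was Casp1, the protease that matures interleukin 1 beta, at 173.2, 222.5, 166.9 and 169.9 in WT libraries 45, 54, 57 and 65, and at 379.1, 228.4, 246.3 and 491.4 in Het libraries 31, 53, 56 and 139 (log2 difference 0.81, SE 0.25, limma adjusted p = 0.336). Each Het library was above each WT library. Casp1 is also expressed in myeloid cells. The summed level of 8 myeloid markers, none at 0 in any library, ranged from 1841 to 3428 among WT and from 1504 to 5649 among Het libraries. It was highest in Het 31 and Het 139 and lowest in Het 56, where Casp1 was at 246.3. The part of myeloid cells in Casp1 was not tested. Next by p were Lrdd (the symbol in the table for Pidd1), a scaffold of caspase 2, at 442 ± 94.3 and 334 ± 44.1, and Ppm1d, a phosphatase that shuts p53 signalling off, at 1432 ± 71.3 and 1250 ± 120 (limma adjusted p = 0.611 and 0.646).

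Regulators of p53 gave 11 higher and 12 lower genes of 23 tested (median -0.04), with 1 at an unadjusted p under 0.05. This was Hipk2, a kinase of p53, with a WT mean of 775 ± 212 and a Het mean of 494 ± 236 (SD, n = 4 each), -0.74 on the log2 scale (limma adjusted p = 0.608). Rpl11, a ribosomal protein that can bind Mdm2, was at 141 ± 53.3 and 201 ± 47.2, and Setd8, a methyltransferase of p53, at 2588 ± 313 and 2160 ± 492 (limma adjusted p = 0.653 and 0.655). Among 11 tested paralogs of the members 4 were higher and 7 lower (median -0.07), and 1, Trp53inp2, was at an unadjusted p under 0.05. The paralogs with the next smallest p were Sesn3, given above, and Phlda1, at 125 ± 23.3 and 108 ± 31.6 (limma adjusted p = 0.794).

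The list of p21 cell cycle partners held cyclins, kinases, pocket proteins, E2F factors, LIN proteins and Pcna. It was split into 11 higher and 11 lower genes of 22 (median -0.005), with none at an unadjusted p under 0.05 by limma. E2f5, a repressive E2F factor, had WT and Het means of 433 ± 79.8 and 533 ± 28.8, Cdk6 at 356 ± 46.0 and 263 ± 98.1, and E2f3 at 218 ± 42.5 and 258 ± 31.9 (limma adjusted p = 0.635, 0.653 and 0.720). Of 25 tested genes of the sestrin and mTORC1 pathway, 13 were higher and 12 lower (median 0.01), with none at an unadjusted p under 0.05 by limma. The mean log2 level of all 26 listed genes was 10.32 to 10.39 in WT libraries and 10.26 to 10.30 in Het libraries. This mean takes in Prkaa2, which was too low to be tested, with means of 10.8 in WT and 2.5 in Het. Most of the gap between the genotypes in the mean log2 level comes from that gene, so it does not describe the list as a whole. Depdc5, a subunit of GATOR1, was at 1333 ± 84.7 and 1123 ± 182, Mios, of GATOR2, at 1014 ± 76.1 and 1150 ± 55.5, and Tsc2, an inhibitor of Rheb, at 3136 ± 105 and 2769 ± 382 (limma adjusted p = 0.638, 0.653 and 0.653). Each Het library was above each WT library in Mios.

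The Atf4 stress response, another known input to Sesn2, had 10 higher and 7 lower genes of 17 tested (median 0.03). Atf3, a stress-induced transcription factor, was at 14.2, 5.7, 6.4 and 33.8 in WT libraries 45, 54, 57 and 65, and at 29.2, 48.2, 42.8 and 22.8 in Het libraries 31, 53, 56 and 139. It was the 1 gene of the list at an unadjusted p under 0.05 (log2 difference 1.47, SE 0.57, limma adjusted p = 0.529), and WT 65 lay among the Het values. Trib3 was at 54.9 ± 20.1 and 75.2 ± 8.05, and Ddit3 at 477 ± 54.9 and 573 ± 126 (limma adjusted p = 0.664 and 0.706). Asns, asparagine synthetase, was among the 7 lower genes, at 28.9 ± 17.0 and 20.8 ± 9.63 (SD, n = 4 each, log2 difference -0.38, SE 0.50), and was named with its value in view.

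**Figure D5:**
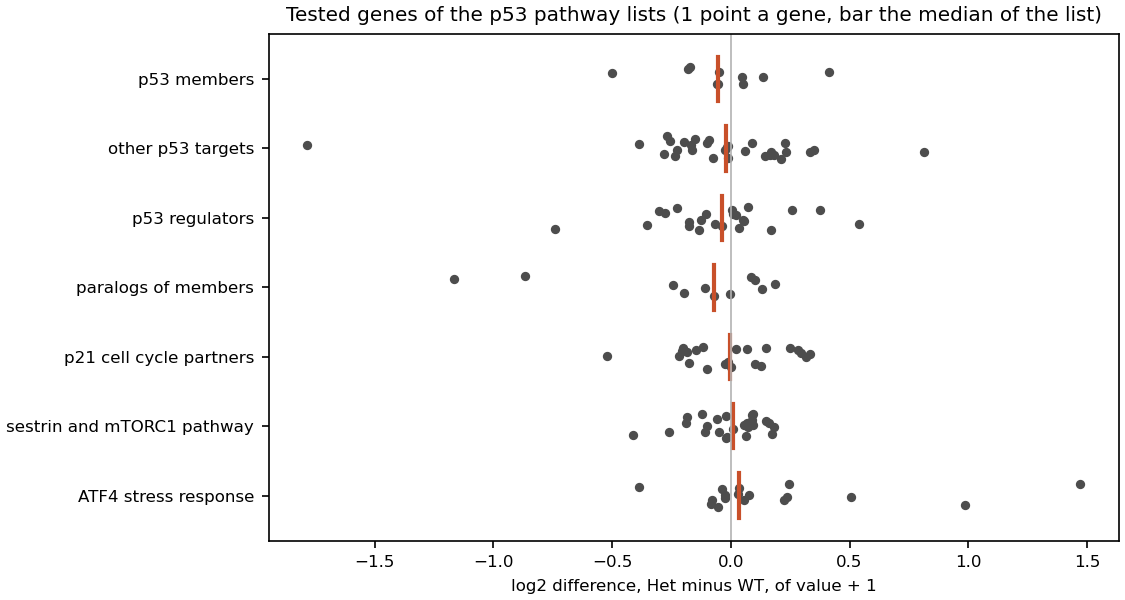
Log2 difference of Het against WT on the log2(value + 1) scale (x axis) for the tested genes of each list (y axis), 1 point a gene, with a bar at the median of the list. The medians lie between -0.07 and 0.03, and no gene shown passed the adjusted threshold.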

How the data were processed

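The deposited file holds 1 linear signal value per gene and library, which the authors call a normalized read count. The submitters' processing notes list CASAVA, TopHat2, HTSeq, DESeq and mm9 and give neither versions nor roles. Neither the normalization nor the strand used in counting is given. The sorted values of the 8 libraries were checked and are nearly the same, so differences in total RNA are hidden and depth is unknown. Whole reads were not recovered and no count model was used.

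The 12048 genes averaging 10 or more across libraries entered a 2-sided limma-trend fit (limma 3.58.1, R 4.3.3) of log2(value + 1). The p-values were adjusted by Benjamini-Hochberg across those 12048 genes, with 0.05 as the threshold. This scale understates the change of low genes. The script was tested on simulated data. Single values were compared with exact permutation over 70 assignments of libraries, and correlations with exact permutation over 40320 orderings. Exon length and GC came from GENCODE M21 (GRCm38), promoters from RefSeq.

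The members and lists were chosen with earlier results of these data known. The text names all members, the up to 3 genes with the smallest p of each pathway list, and the 3 genes most correlated with Trp53 and with Cdkn1a. Other paralogs and markers were named beside a member. Older symbols were matched through RefSeq synonyms, and all 251 list entries used were found. In the nerve and glia list, 1 marker is not reported here. Alternatives changed the pseudocount, filter, scaling, variance model, weights or libraries. The GC and length trends were added after the data had been seen.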

Additional observations from a re-analysis of the deposited data

Results flagged for a closer look

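Trp53inp1 in WT 65, at 12032.4, stood apart from the other WT libraries, at 8637.3 to 9029.9, by nearly the whole range of the genotype. This was 1 of 20 groups of 4 libraries examined (10 members in each genotype), or 5%, and chance gives about 1 in 20. WT 65 had the highest GC trend of the WT libraries, at 0.16, and the part of the trend in this value was not tested.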

How the results depend on the processing

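No member passed the threshold in any of 19 alternatives (9 other settings, 8 fits that left out 1 library, and 2 covariates added after the data had been seen), and the lowest limma adjusted p of any member was 0.234. The 6 pathway lists likewise kept a count of 0 in all 19. The median log2 difference of the members was between -0.09 and 0.005. The count over all genes was 62, and became 123 with any gene above 0 and 14 with a mean of at least 50 (more and fewer genes tested). It was 20 with the GC trend and 11 with the length trend as a covariate, and 11 to 91 when 1 library was left out. Cdkn1a and Phlda3 have means under 50 and have no value with that filter.

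Mdm2, Sesn1, Sesn2, Gadd45a, Phlda3 and Trp53inp1 kept their sign in every alternative run for them, but 4 of them came near 0 when 1 library was left out: Mdm2 at -0.008 without WT 45, Sesn1 at -0.002 without Het 56, Gadd45a at -0.028 without Het 56 and Trp53inp1 at 0.0045 without Het 53. Zmat3 was at -0.006 without Het 139. Leaving out 1 library gave -0.15 to 0.050 for Trp53 (above 0 without WT 54, WT 57 or Het 53), -0.20 to 0.36 for Cdkn1a (below 0 without WT 57, WT 65, Het 31 or Het 56) and -0.015 to 0.096 for Ccng1 (below 0 without WT 57). The GC trend as a covariate turned Trp53 to 0.045 and Ccng1 to -0.0037, and the length trend turned Zmat3 to 0.020. No paired analysis was possible because the genotypes share no replicate number. Total library depth is unknown, but by the read estimates like values did not rest on like read numbers. Cdkn1a at 65.7 in WT 45 rested on an estimated 77 reads, and at 60.9 in Het 56 on 46. Phlda3 at 43.3 in WT 54 and at 74.8 in Het 139 rested on an estimated 66 reads each. How far depth limits the low values of Cdkn1a and Phlda3 was not tested.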

Other observations

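Trp63, the p53 relative of basal epidermis, stood at 81.1 in WT 45, at 31.4 in WT 54, at 12.4 in Het 56 and at 2.4 or less in the other 5 libraries. These are the libraries with the highest epidermis marker levels and the highest Cdkn1a. Trp73, the other relative, was at 6.5 or less in every library and listed at 0 in 4 of the 8. Both were picked with their values in view.

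Mdm4, the Mdm2 relative that inhibits p53, was at 5896.7, 3908.7, 4671.1 and 6457.8 in WT libraries 45, 54, 57 and 65, and at 3506.5, 6598.1, 5460.2 and 3781.2 in Het libraries 31, 53, 56 and 139. Atm, the kinase that activates p53, was lowest in the same 3 libraries, at 4708.6 in WT 54, 4700.7 in Het 31 and 4597.6 in Het 139. Those are the 3 libraries with a length trend above 0. The part of the trend in these values was not tested, and both genes were picked with their values in view.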
